A study of Mus musculus with 6 samples.

Results

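The integrated stress response is the pathway by which cells slow protein synthesis under stress while they translate a small set of mRNAs, first of all that of the transcription factor ATF4. Kinases phosphorylate the initiation factor eIF2, ATF4 protein is made, and ATF4 acts with other leucine zipper (bZIP) proteins on genes of amino acid supply, redox balance and cell death. Feedback genes then reverse the block or restrain ATF4. In this pathway ATF4 is controlled largely at translation, so its mRNA level need not follow its activity. The genes described here are 10 transcription factors and feedback genes of the ATF4 branch, namely Atf4, Atf5, Atf3, Ddit3, Cebpb, Cebpg, Nupr1, Trib3, Chac1 and Ppp1r15a, taken by gene symbol from a table of 54532 genes. The set was selected on measured values, with the FPKM of si-circRtn4 against si-NC in view, so its changes in that comparison are a description and no p is given for them.

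RNA was sequenced from 6 libraries of N2a (Neuro2A) cells, a mouse neuroblastoma line, 3 given a control siRNA (si-NC) and 3 an siRNA against circRtn4 (si-circRtn4). CircRtn4 is a circular RNA formed by back-splicing of exons of Rtn4, and the study asked which genes change when it is silenced. The labels give the strain of all libraries as C57BL/6, which the study's methods name only for its mice and the primary neurons. The labels also name the growth medium, MEM with serum, for all libraries. The study's general methods instead move transfected N2a cells to medium with retinoic acid, and the state of differentiation in these libraries is not known here. All values come from 1 cell line and 1 siRNA, and the labels do not say whether the libraries of a group were separate cultures, so any p measures only the spread between these libraries.

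The libraries held 13541198 to 15122063 reads on genes. Markers of neuroblastoma and sympathetic neurons were expressed, with 14 of 15 at a mean of at least 1 FPKM in si-NC and 12 of 15 in si-circRtn4, and their summed level was 2661 to 2932 FPKM in si-NC and 1182 to 1709 FPKM in si-circRtn4. No marker of fibroblasts, macrophages or endothelium reached a mean of 1 FPKM in either group, and of the 6 markers of Schwann cells and other glia only Mbp did. Reads of mitochondrial protein-coding genes made up 2.03% to 2.26% of the total in si-NC and 1.50% to 1.87% in si-circRtn4. The part of these differences in the results below was not tested. Rtn4 itself was at 61.0, 66.8 and 69.8 FPKM in si-NC and at 50.1, 56.7 and 62.7 FPKM in si-circRtn4, and limma put the log2 difference at -0.22 (SE 0.10) with an adjusted p of 0.216. With replicate number as a block the adjusted p was 0.0447, and Rtn4 was called in no other of 15 alternatives. FPKM does not separate the circular from the linear RNA, so the silencing of circRtn4 cannot be read from these values.

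The siRNA is shown first, with the site that pairs with bases 2 to 8 of its guide in capitals, taking the guide as the reverse complement of the listed strand. The mature miR-24-3p, which the study presents as bound by circRtn4, follows with its seed (bases 2 to 8) in capitals, from RefSeq.
si-circRtn4: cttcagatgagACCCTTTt
mmu-miR-24-3p: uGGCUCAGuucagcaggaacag
Taking for each gene its longest annotated 3′ UTR, none of the 10 held the guide's 7-base site, which 12.5% of 10682 tested coding genes held. A 7-base site for miR-24-3p was found in Atf3 only, against 19.4% of the same coding genes. It lies at chr1:191170793-191170799 (GRCm38, minus strand) and is shown with its surroundings at chr1:191170782-191170810, the site in capitals. The base after it is an A, which makes it an 8mer site.
Atf3 3′ UTR: ctgatgaccagCTGAGCCactttgtgcca

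Promoter windows from RefSeq (GRCm38.p6), 250 bases before to 50 after the annotated start, were found for all 10 genes. They were searched on both strands for the composite C/EBP-ATF element (TGATGNAAN), at which ATF4 binds as a dimer with a C/EBP protein, the cyclic AMP response element (TGACGTCA), and the ER stress element (CCAAT, 9 bases, CCACG). The composite element was present in 4 genes and in 4.50% of 27025 genes with a window. The cyclic AMP response element was present in Ppp1r15a and in 2.03% of genes, and the ER stress element in none of the 10 and in 0.137% of genes. No gene of the 10 held more than 1 of these matches. They are shown here because they are the only matches among the 10 genes, as 30 bases of the transcript's strand with the match in capitals. In Atf3, Chac1, Nupr1 and Trib3 the match is the reverse complement of the motif.
Atf3: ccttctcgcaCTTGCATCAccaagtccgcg
Chac1: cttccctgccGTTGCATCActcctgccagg
Nupr1: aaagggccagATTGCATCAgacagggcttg
Trib3: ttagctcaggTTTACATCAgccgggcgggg
Ppp1r15a: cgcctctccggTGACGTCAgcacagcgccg
These stretches lie at chr1:191183425-191183454 (minus strand), chr2:119351038-119351067 (plus strand), chr7:126625562-126625591 (minus strand), chr2:152344028-152344057 (minus strand) and chr7:45526262-45526291 (minus strand), in this order. The matches begin 111, 194 and 111 bases before the start in Atf3, Chac1 and Nupr1, 13 bases after it in Trib3 and 12 bases before it in Ppp1r15a. A match is a description of the letters, and for Atf4, Atf5, Ddit3, Cebpb and Cebpg these letters are not in this window.

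Upstream reading frames in the 5′ leader are a known feature of mRNAs that are translated when eIF2 is phosphorylated. In 1 annotated GENCODE M21 transcript per gene, 7 of the 10 genes had at least 1 ATG before the main start codon, and 50.2% of 10758 tested coding genes had one. Atf4 had 3 in a leader of 594 bases. The first frame was 36 codons long, the second 3 codons, and the third was 59 codons and ran 83 bases into the coding sequence. Atf5 had the same arrangement at the end of a leader of 373 bases, with a frame of 3 codons followed by 1 of 58 codons that ran 56 bases into the coding sequence. A frame running past the main start was found in these 2 genes and in 15.8% of the tested coding genes. Ppp1r15a had 3 frames of 45, 34 and 26 codons, all ending before the main start. Ddit3 had 2 upstream ATGs in 1 shared frame, with 34 codons from the first. Atf3, Nupr1 and Cebpg had 1 each, of 25, 24 and 1 codons, and Cebpb, Trib3 and Chac1 had none. Other annotated transcripts differ for Atf5 (2 to 6 upstream ATGs), Cebpg (1 to 4) and Ppp1r15a (3 to 7).

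**Figure D1:**
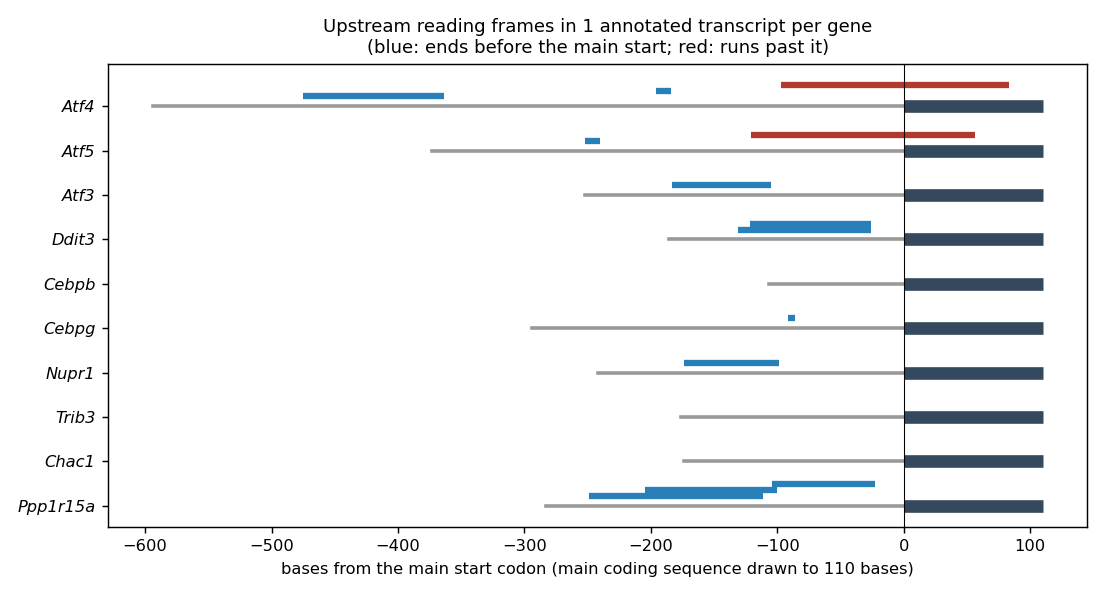
Upstream reading frames of the 10 genes in 1 annotated transcript each, with distance in bases from the main start codon on the x axis (grey line, 5′ leader; dark bar, start of the coding sequence). Blue bars end before the main start and red bars run past it, as in Atf4 and Atf5.

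The frame of 34 codons in Ddit3 is also listed as a gene of its own under the same symbol (ENSMUSG00000116429, chr10:127290829-127293753, 105 bases). It was at 0 FPKM in all 6 libraries, although the Ddit3 gene that contains it (ENSMUSG00000025408) held 928 to 2010 reads. The table thus gives 11 entries for the 10 symbols, and all values of Ddit3 below are those of the gene with reads.

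All 10 genes were above 0 in every library, with 345 to 17171 reads behind each value, and all 10 were among the 12749 genes tested, those with mean FPKM of 1 or more over the 6 libraries. FPKM is the number of fragments per length of gene and per library size. For Nupr1 the listed gene length was 2514 bases, whereas the annotated transcript used above had 829. For Cebpb both lengths were 1504. Levels of different genes therefore depend on the length used, and the order and shares given here hold for the listed lengths only. In si-NC the order of the mean levels was Atf4 (394 FPKM), Atf5 (224), Trib3 (99.6), Chac1 (78.1), Ddit3 (46.7), Cebpb (34.5), Ppp1r15a (31.7), Cebpg (24.3), Nupr1 (19.8) and Atf3 (11.9). The ranges of Trib3 and Chac1, of Ddit3 and Cebpb, of Cebpb and Ppp1r15a and of Cebpg and Nupr1 overlapped, and those of the other neighbours in this order did not. Atf4 alone made up 40.9% of the summed mean level of the 10 genes. In si-circRtn4, Ppp1r15a (71.0 FPKM) stood before Ddit3 (67.6 FPKM) and Cebpb (58.5 FPKM), but the ranges of these 3 overlapped, as did those of Nupr1 and Atf3, and the order was otherwise the same. The summed level of the 10 genes was 1051, 819 and 1025 FPKM in si-NC and 1150, 1228 and 1111 FPKM in si-circRtn4, so the groups did not overlap. Without Atf4 and Atf5 it was 377, 280.0 and 383 FPKM against 520, 549 and 463 FPKM.

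**Figure D2:**
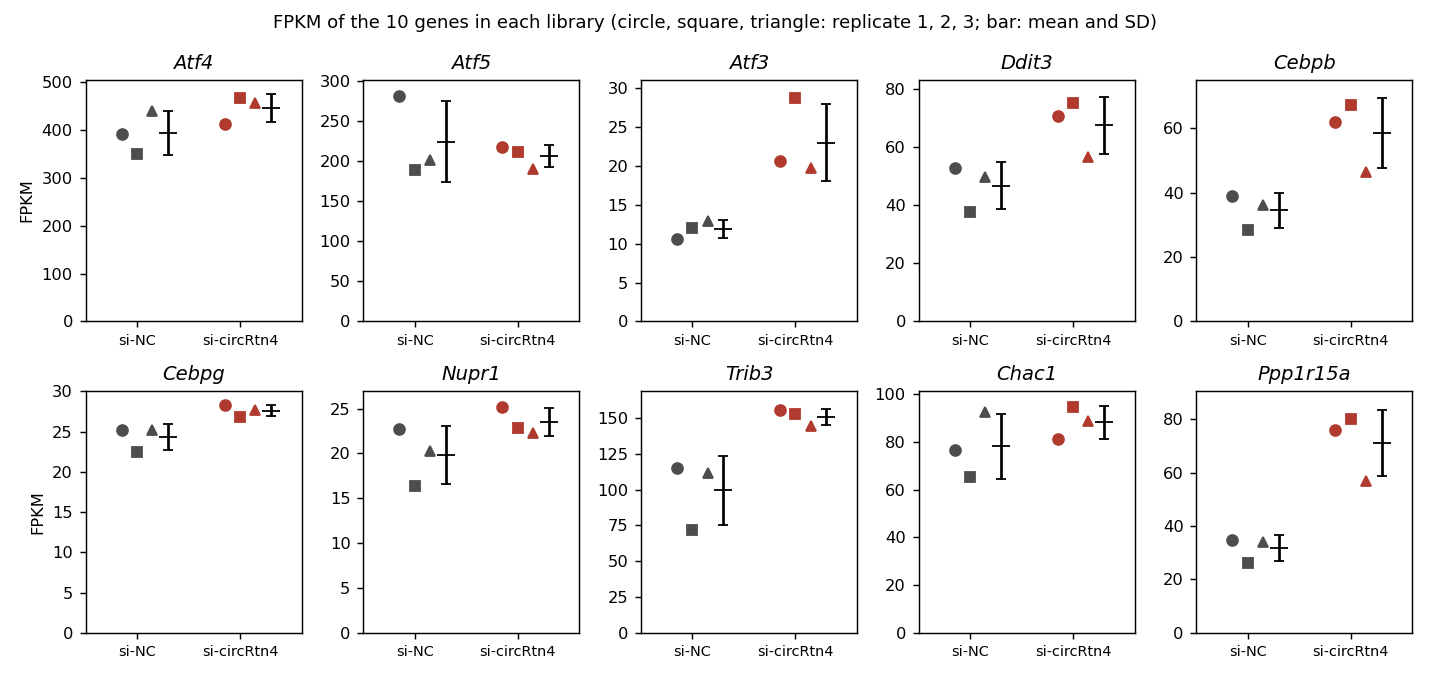
FPKM (y axis, from 0) of the 10 genes in each library, with si-NC in grey and si-circRtn4 in red, a symbol per replicate number, and the mean with SD beside them (n = 3). The groups are apart in Atf3, Ddit3, Cebpb, Cebpg, Trib3 and Ppp1r15a and overlap in Atf4, Atf5, Nupr1 and Chac1.

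The question put to these genes was which of them differed between si-circRtn4 and si-NC. The largest differences were those of Ppp1r15a, Atf3 and Cebpb, at 1.14, 0.89 and 0.74 on the scale of log2(FPKM + 1), and Atf4 itself was at 0.18. As a description of the set, these 3 were the genes of the 10 called at an adjusted p under 0.05 in the limma fit across all tested genes, and none was called lower. Over all 12749 genes, 4.36% were called higher and 4.82% lower, 9.19% in all. At an unadjusted p under 0.05, 6 of the 10 genes were higher and 0 were lower, beside 13.1% and 12.8% of all tested genes (25.9% in all). In limma-voom on the reads recovered from the FPKM values, 5 were called higher (Ddit3 and Trib3 in addition) and 0 lower, beside 6.13% and 6.89% of all tested genes. With replicate number as a block in limma, 4 were called higher (Trib3 in addition) and 0 lower. Over all 12749 tested genes that fit called 1185 higher and 1243 lower. Since the genes were chosen with this comparison in view, nothing is read from these counts. The median log2 fold change of the 10 genes was 0.39, and that of all tested genes was 0.0020. In 6 of the 10 genes every si-circRtn4 library was above every si-NC library, and over all tested genes 16.2% were apart in this direction and 15.5% in the other. These values are relative to the other RNAs of a library, and more RNA per cell cannot be told apart from more cells with the RNA.

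**Figure D3:**
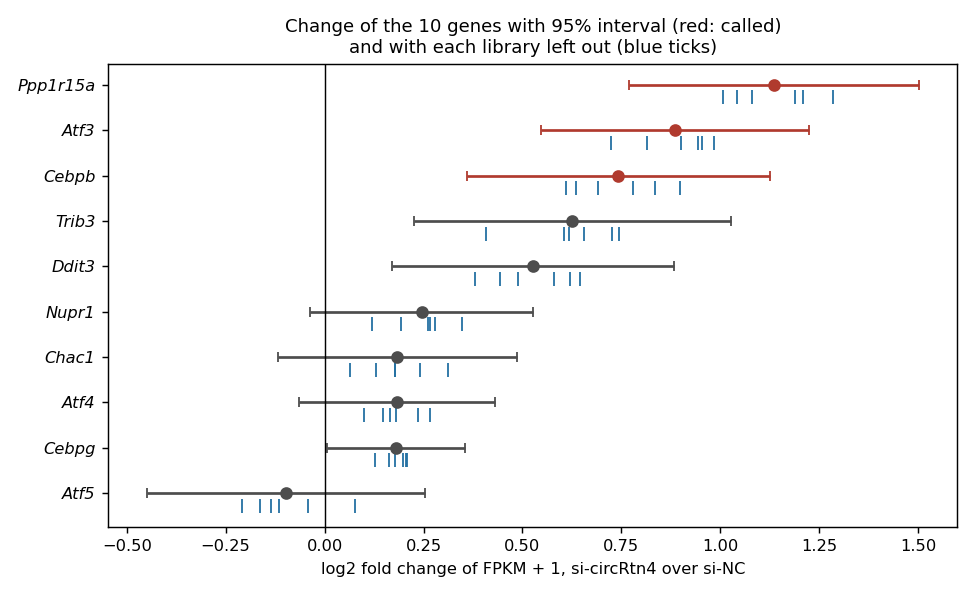
Log2 fold change of FPKM + 1 in si-circRtn4 over si-NC (x axis) for the 10 genes, with the 95% interval from limma, red for the 3 genes called at an adjusted p under 0.05. Blue ticks give the value with each of the 6 libraries left out in turn, and only Atf5 crosses 0 with them.

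ATF4 is the central activator of the pathway. Atf4 (ENSMUSG00000042406, chr15:80255184-80257541, plus strand) was at 392, 350 and 441 FPKM in si-NC and at 414, 468 and 457 FPKM in si-circRtn4. The highest si-NC library lay above the lowest si-circRtn4 library, so the groups overlapped. The means were 394 ± 45.4 and 446 ± 28.6 FPKM (SD, n = 3 each), 1.13 times apart. The log2 fold change was 0.18 (standard error 0.11), with a 95% interval of -0.065 to 0.43. Without si-NC replicate 2 it was 0.10.

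ATF5 is a related bZIP factor whose translation is raised in the same way as that of ATF4. Atf5 (ENSMUSG00000038539, chr7:44812256-44816658, minus strand) was at 282, 189 and 202 FPKM in si-NC and at 217, 212 and 191 FPKM in si-circRtn4. It was the gene of the 10 that had a negative log2 fold change, at -0.098 (standard error 0.15, 95% interval -0.45 to 0.25). The sign rested on si-NC replicate 1, which was far above the others, and without that library the value was 0.078. Atf5 overlaps Nup62, which reached 59.4 FPKM, on the other strand by 571 bases, and since strandedness is not stated in the sources used here, their reads cannot be told apart there.

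Ddit3 and Atf3 encode bZIP factors that are induced downstream of ATF4. DDIT3, also called CHOP, is known for its part in stress-induced cell death, and ATF3 mostly represses. Atf3 (ENSMUSG00000026628, chr1:191170296-191218039, minus strand) was at 10.6, 12.1 and 12.9 FPKM in si-NC and at 20.6, 28.7 and 19.7 FPKM in si-circRtn4. Every si-circRtn4 library was above every si-NC library. The means were 11.9 ± 1.15 and 23.0 ± 4.96 FPKM (SD, n = 3 each), a ratio of 1.94, and the log2 fold change was 0.89 (standard error 0.15). Atf3 was called in 14 of 15 alternatives. Ddit3 (chr10:127290774-127296288, plus strand) was at 52.9, 37.6 and 49.8 FPKM in si-NC and at 70.6, 75.4 and 56.7 FPKM in si-circRtn4. Its groups were apart, with si-circRtn4 replicate 3 only a little above the highest si-NC library. The log2 fold change of Ddit3 was 0.53 (standard error 0.15), and it was called in 3 of 15 alternatives. On the other strand Ddit3 overlaps Mars by 68 bases, at up to 69.9 FPKM, and Gm4189 by 15 bases, at up to 5.53 FPKM.

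C/EBP beta and C/EBP gamma are the bZIP proteins with which ATF4 forms dimers on the composite element. Cebpb (ENSMUSG00000056501, chr2:167688915-167690418, plus strand) was at 39.0, 28.3 and 36.1 FPKM in si-NC and at 62.1, 67.2 and 46.3 FPKM in si-circRtn4. The groups did not overlap. The means were 34.5 ± 5.54 and 58.5 ± 10.9 FPKM (SD, n = 3 each), a ratio of 1.70, and the log2 fold change was 0.74 (standard error 0.16). The call of Cebpb was lost in 4 of the 6 fits that left out 1 library. They were those without si-NC replicate 2 (0.61), si-NC replicate 3 (0.78), si-circRtn4 replicate 1 (0.69) and si-circRtn4 replicate 2 (0.64). Cebpb overlaps Tmem189 on the other strand by 908 of its 1504 bases, and Tmem189 was at 13.0 FPKM at most. Cebpg (ENSMUSG00000056216, chr7:35046422-35056573, minus strand) was at 25.3, 22.4 and 25.2 FPKM in si-NC and at 28.3, 26.9 and 27.7 FPKM in si-circRtn4. The libraries of Cebpg were the closest to each other of the 10 genes, and its groups were apart at a log2 fold change of 0.18 (standard error 0.075, not called). Cebpg shares 1140 bases with Gm44836 and 617 with Gm45094 on its own strand and 353 with Gm45095 on the other, none above 3.87 FPKM. The ratio of Cebpb to Cebpg per length was 1.55, 1.26 and 1.43 in si-NC and 2.20, 2.50 and 1.67 in si-circRtn4.

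Nupr1 encodes a small chromatin cofactor induced by stress. Nupr1 (ENSMUSG00000030717, chr7:126623249-126630861, minus strand) was at 22.8, 16.3 and 20.3 FPKM in si-NC and at 25.2, 22.9 and 22.3 FPKM in si-circRtn4. The groups overlapped, since si-NC replicate 1 was above si-circRtn4 replicate 3. The log2 fold change was 0.25 (standard error 0.12, 95% interval -0.037 to 0.53), and 0.12 without si-NC replicate 2.

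Trib3 encodes a pseudokinase that binds ATF4 and restrains it. Trib3 (ENSMUSG00000032715, chr2:152337422-152344032, minus strand) was at 115, 71.8 and 112 FPKM in si-NC and at 156, 153 and 145 FPKM in si-circRtn4. The groups were apart, and si-NC replicate 2 was far below the other si-NC libraries. The means were 99.6 ± 24.1 and 151 ± 5.57 FPKM (SD, n = 3 each), a ratio of 1.52, and the log2 fold change was 0.63 (standard error 0.17). Trib3 was not called in the unpaired fit and was called with replicate number as a block and in 4 other alternatives. Without si-NC replicate 2 the value was 0.41. Chac1 encodes an enzyme that breaks down glutathione. Chac1 (ENSMUSG00000027313, chr2:119351229-119354381, plus strand) was at 76.6, 65.3 and 92.5 FPKM in si-NC and at 81.2, 94.7 and 88.6 FPKM in si-circRtn4. The groups overlapped, with a log2 fold change of 0.18 (standard error 0.13, 95% interval -0.12 to 0.49) and 0.064 without si-NC replicate 2.

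Ppp1r15a, also called Gadd34, encodes the induced regulatory subunit that directs protein phosphatase 1 to eIF2 and so reverses its phosphorylation. Ppp1r15a (ENSMUSG00000040435, chr7:45522916-45526268, minus strand) was at 35.0, 26.1 and 34.0 FPKM in si-NC and at 76.1, 80.1 and 56.9 FPKM in si-circRtn4. The groups were apart, and si-circRtn4 replicate 3 was the lowest of its group. The means were 31.7 ± 4.83 and 71.0 ± 12.4 FPKM (SD, n = 3 each), a ratio of 2.24. The log2 fold change of 1.14 (standard error 0.16, 95% interval 0.77 to 1.50) was the largest of the 10 genes. It was called in all 15 alternatives, with values between 1.01 and 1.29. It shares 717 bases with Tulp2 on the other strand, which was at 2.25 FPKM at most. Ppp1r15b, the subunit present without stress, was at 37.9, 35.7 and 36.7 FPKM in si-NC and at 37.5, 35.3 and 36.3 FPKM in si-circRtn4. Its log2 difference was -0.014 (SE 0.067), with an adjusted p of 0.928 in limma, and the sign turned in 5 alternatives, at 0.078 as TPM. Per length, Ppp1r15a was thus at 0.923, 0.732 and 0.926 times the level of Ppp1r15b in si-NC and at 2.03, 2.27 and 1.57 times in si-circRtn4.

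Within each group, most of the 10 genes were lowest in the same library. The genes were chosen with these values in view, and a low si-NC library itself raises the difference between the groups. The shares of all tested genes are given beside the counts, and nothing is read from the comparison. Si-NC replicate 2 was the lowest si-NC library for 9 of the 10 genes, the exception being Atf3, whereas it was the lowest for 29.5% of all tested genes. Its mean over the 10 genes was 0.22 below the si-NC mean on the log2 scale, and the other si-NC libraries were 0.12 and 0.099 above it. In si-circRtn4, replicate 3 was the lowest for 7 of the 10 genes and for 30.8% of all tested genes. Replicate 2 was the highest for 6 of the 10 and for 30.9% of all tested genes. The mean of the 10 genes was 0.48, 0.57 and 0.34 above the si-NC mean in the si-circRtn4 libraries. Without si-NC replicate 2 the median log2 fold change of the 10 genes was 0.25 and 2 of them were called, Ppp1r15a and Atf3, but only 157 genes were then called higher in all against 556 with all libraries.

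**Figure D4:**
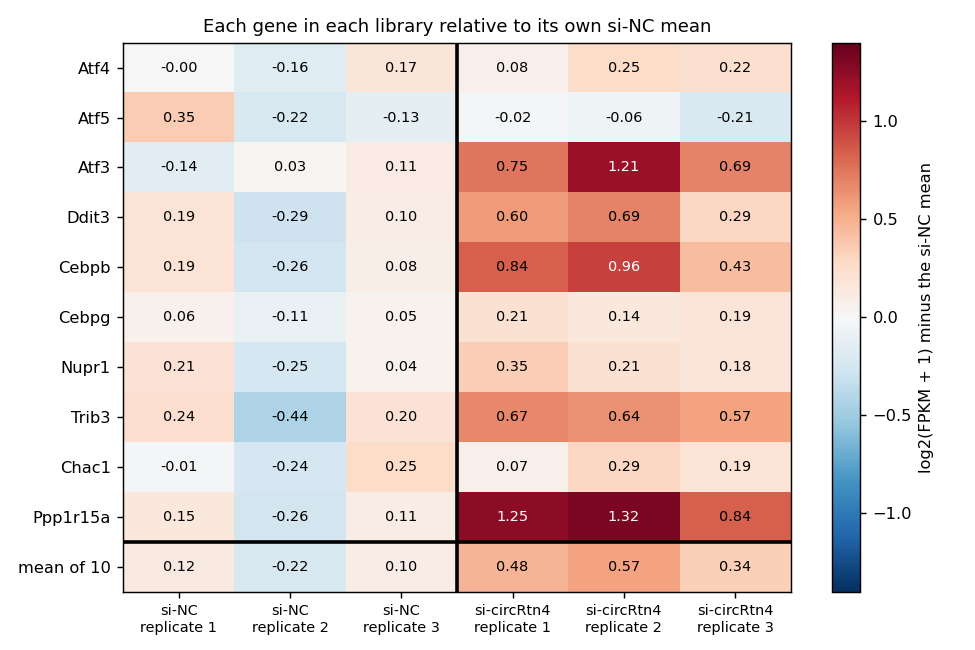
Each cell gives log2(FPKM + 1) of a gene (row) in a library (column) minus the mean of that gene over the si-NC libraries, red above and blue below 0. Si-NC replicate 2 is below 0 in all rows but Atf3, and Ppp1r15a has the highest values in si-circRtn4, at 1.25, 1.32 and 0.84.

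To name genes with a like pattern, the distance between profiles was taken as the root mean square over the 6 libraries of the difference in log2(FPKM + 1), each relative to its si-NC mean. The nearest profiles to that of Atf4 were Rabepk (0.038), Cdk9 (0.039), Pop4 (0.041), Neat1 (0.041) and Gm5535 (0.045), none of which was called. The nearest to the mean of the 10 genes were Lonp1 (0.046), Ctsl (0.050), Klf9 (0.051), Nfil3 (0.053) and Rnd1 (0.053). These were all called higher, though in at most 3 of the 6 fits that left out 1 library. The distance includes the difference between the groups, so neighbours were bound to change much as their target did. Nothing is read from whether they were called. Of the 10 genes themselves Ddit3 was the nearest to their mean (0.084) and Ppp1r15a the farthest (0.49), followed by Atf5 (0.42).

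The rest of the pathway was described by 7 lists, which were drawn up with earlier results of these data known. Their counts are therefore a description. Over all tested genes limma called 4.36% higher and 4.82% lower. Upstream, the eIF2 kinases and their activators held 0 called genes of 8 tested, with 4 above and 4 below 0 in limma. At an unadjusted p under 0.05 there were 0 higher and 1 lower, and limma-voom called 0. Eif2ak1 (HRI, which senses heme) was at 9.83 ± 0.378 and 8.69 ± 0.598 FPKM (SD, n = 3), at -0.16 on the log2 scale (adjusted p = 0.238 from limma). Eif2ak3 (PERK, of the endoplasmic reticulum) was at 9.39 ± 0.768 and 8.64 ± 0.483 FPKM (SD, n = 3), at -0.11 (adjusted p = 0.479 from limma). Eif2ak2 (PKR, which binds double-stranded RNA) was 0.074 higher (adjusted p = 0.745 from limma), but -0.019 without si-NC replicate 2. Eif2ak4 (GCN2, which senses uncharged tRNA) was 0.040 higher (adjusted p = 0.770 from limma). These are mRNA levels and do not show the activity of the kinases. Among eIF2, eIF2B and the eIF2 phosphatases, limma called 0 of 12, with 0 at an unadjusted p under 0.05 and 0 in limma-voom.

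Of the other bZIP factors, 28 of 39 were tested, and their median log2 fold change was 0.13. Limma called 3 of them higher and 0 lower, beside 4.36% higher and 4.82% lower of all tested genes. With the replicate block 6 were called higher, beside 1185 of all 12749 tested genes. No gene of the list was lower at an unadjusted p under 0.05 or in limma-voom. Maff, a small Maf protein, went from 9.41 ± 3.19 to 17.1 ± 1.63 FPKM (SD, n = 3), a rise of 0.84 (adjusted p = 0.0393 from limma). Hlf, a factor of the PAR family, went from 3.98 ± 0.384 to 7.41 ± 0.326 FPKM (SD, n = 3), a rise of 0.76 (adjusted p = 0.00352 from limma). Nfil3, a bZIP repressor, rose by 0.47 (adjusted p = 0.0342 from limma). With 1 library left out at a time, Hlf was called in all 6 fits, Maff only without si-NC replicate 3, and Nfil3 in 0 of them, at 0.38 to 0.54.

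Of the ATF4 targets of amino acid supply, 6 of 33 tested were called higher and 0 lower in limma, and 27 were not called. Over all tested genes 4.36% were called higher and 4.82% lower. In this list 29 were above and 4 below 0, with a median of 0.19. The genes named next are the 3 called ones with the largest change and do not stand for the list. None was lower at an unadjusted p under 0.05 or in limma-voom. Cth, which makes cysteine from cystathionine, went from 20.8 ± 5.88 to 36.7 ± 3.80 FPKM (SD, n = 3), a rise of 0.82 (adjusted p = 0.0325 from limma). Slc7a11, the cystine transporter, rose by 0.67 (adjusted p = 0.0224 from limma), from 5.16 ± 1.10 to 8.75 ± 0.745 FPKM (SD, n = 3). Pycr1, of proline synthesis, rose by 0.64 (adjusted p = 0.00930 from limma), from 16.2 ± 1.79 to 25.7 ± 1.31 FPKM (SD, n = 3). Pycr1 was called in all 6 fits that left out 1 library, while Cth and Slc7a11 were called only without si-NC replicate 3. The number called in this list was 1 when replicate 1 or 2 of si-NC or replicate 2 or 3 of si-circRtn4 was left out, and 2 when it was replicate 1 of si-circRtn4.

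Of the ATF4 and CHOP targets of growth, redox and death, 20 of 24 were tested, with a median of 0.20. Limma called 6 of them higher and 2 lower, beside 4.36% higher and 4.82% lower of all tested genes, and 12 were not called. The number higher was 2 without si-NC replicate 2, 2 without si-circRtn4 replicate 1 and 3 without si-circRtn4 replicate 3. The number lower was 1 without either of the first 2 of these libraries. At an unadjusted p under 0.05, 9 were higher and 3 lower, beside 13.1% and 12.8% of all tested genes. Limma-voom called 8 higher and 3 lower, beside 6.13% and 6.89%. The genes named in this paragraph were all called and do not stand for the list. The list included Sqstm1 and Hmox1, which are also known targets of the antioxidant factor NRF2. Angptl6, a secreted angiopoietin-like protein, went from 5.61 ± 1.18 to 13.5 ± 1.24 FPKM (SD, n = 3), a rise of 1.15 (adjusted p = 0.00371 from limma). Car6, a secreted carbonic anhydrase, rose by 1.10 (adjusted p = 0.0202 from limma), from 2.03 ± 0.753 to 5.47 ± 1.31 FPKM (SD, n = 3). Txnip, which binds thioredoxin, went the other way, from 17.7 ± 7.34 to 4.42 ± 1.82 FPKM (SD, n = 3), at -1.77 (adjusted p = 0.0170 from limma). The other lower gene was Dusp8, a phosphatase of MAP kinases. With 1 library left out, Angptl6 was called in all 6 fits, Txnip in 4 and Car6 in 3. Leaving out si-NC replicate 2 or replicate 1 of si-circRtn4 ended both calls, and leaving out replicate 3 of si-circRtn4 ended that of Car6. Their values stayed between 1.04 and 1.29, between -2.02 and -1.47, and between 0.96 and 1.29.

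The ATF6 and IRE1 branches of the unfolded protein response, which answer misfolded protein in the endoplasmic reticulum without eIF2, held 0 called genes of 22 in limma. At an unadjusted p under 0.05, 3 of the 22 were higher and 2 lower, where 25.9% of all tested genes passed in either direction. Limma-voom called 1 in each direction, beside 6.13% higher and 6.89% lower of all tested genes. With the replicate block 2 were called higher and 2 lower, beside 1185 higher and 1243 lower of all 12749 tested genes. Their median log2 fold change was 0.066. Of the 9 mitochondrial stress genes, limma called Lonp1 higher and 0 lower, and 0 were lower at an unadjusted p under 0.05 or in limma-voom. Lonp1, the Lon protease of the mitochondrial matrix, went from 92.4 ± 10.2 to 128 ± 5.69 FPKM (SD, n = 3), a rise of 0.48 (adjusted p = 0.0255 from limma). Lonp1 was called in 2 of the 6 fits that left out 1 library, those without si-NC replicate 1 and si-NC replicate 3, and lay between 0.38 and 0.54. Over the 7 lists together, 16 of 132 tested genes were called higher and 2 lower, beside 4.36% and 4.82% of all genes. Without si-NC replicate 2 there were 4 and 1, and without replicate 1, 2 or 3 of si-circRtn4 there were 5, 6 and 5 higher. Since the lists were chosen with earlier results of these data known, nothing is read from these counts against the shares of all genes.

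**Figure D5:**
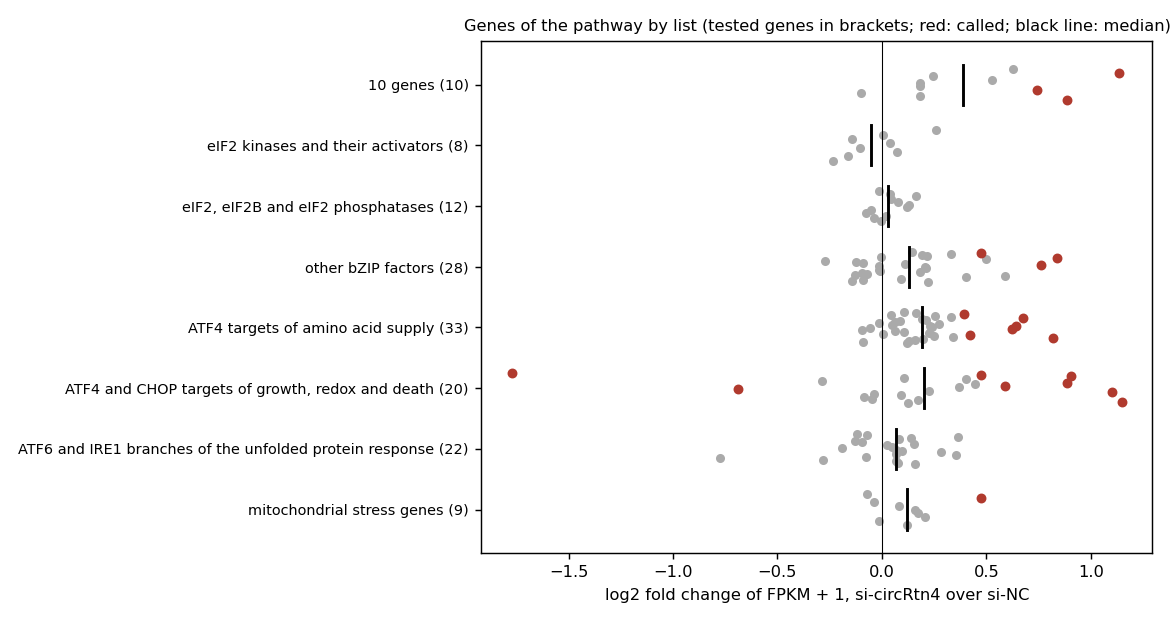
Log2 fold change of FPKM + 1 in si-circRtn4 over si-NC (x axis) for every tested gene of the 10 and of each of the 7 lists, red where called at an adjusted p under 0.05, with the median as a black line. The medians are 0.39 for the 10 genes, -0.051 for the eIF2 kinases and 0.20 at most in the other lists.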

How the data were processed

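RNA sequencing libraries of N2a cells, 3 of si-NC and 3 of si-circRtn4, were assigned by the sample titles, which match the columns of the table. The table deposited by the authors holds FPKM for each gene, with its length. The submitters' notes list Bowtie 0.12.2 and the builds mm8 and mm9, whereas 98.1% of the genes have the coordinates of GENCODE M21 (GRCm38). The counting tool and strandedness are not given in the sources used here. FPKM times gene length gave whole multiples of 1 read (within 0.01) for 100% of the values in each library, so reads could be recovered. The table's 6 other sample columns were not used. Genes whose mean FPKM reached 1 were put on the log2(FPKM + 1) scale and compared by limma 3.58.1 (R 4.3.3, with a trend), adjusted by Benjamini-Hochberg over the 12749 genes tested and called at an adjusted p under 0.05. The fit was also run on simulated data as a self-test, but its outcome is not given here and nothing is read from it. Genes named are the 10, up to 3 called genes of each list with the largest change, the 5 nearest profiles, Rtn4, Ppp1r15b and the eIF2 kinases. Dusp8, Sqstm1 and Hmox1 were named after their values were seen. The 10 genes and the lists were chosen with earlier results of these data known. Libraries with the same replicate number deviated together (r = 0.331, 0.190 and 0.226 across genes, and at most 0.00913 for different numbers), so they were treated as paired where replicate number was a block. The main fit left this pairing out. Alternatives were another pseudocount (0.1), no filter or a mean of at least 5 FPKM, TPM with and without Gm23935 (13.5% to 20.7% of the summed FPKM of a library), quantile normalization, limma-voom, the block, and each library left out. Depth limits precision most for Atf3, which had the fewest reads (345 in 1 library).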

Additional observations from a re-analysis of the deposited data

How the results depend on the processing

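Over 15 alternatives, the log2 fold changes of the 10 genes kept direction and call in 135 of 150 values, gained the call in 8 and lost it in 6, and only that of Atf5 reversed, at 0.078 without si-NC replicate 1 (range with 1 library left out -0.21 to 0.078). The called number of the 10 genes was 3, but 1 with no filter on low values, 4 at a mean of at least 5 FPKM and 4 with the replicate block. It was 5 as TPM, 5 in limma-voom with TMM, and 5 in limma-voom with median-ratio scaling (an alternative chosen after seeing the data). With 1 library left out it was 2 to 3. Over all genes, 556 were higher and 615 lower of 12749 tested, against 210 and 261 of 28442 tested with no filter. At a mean of at least 5 FPKM they were 469 and 541 of 8381 tested. They were 972 and 393 as TPM, and 1185 and 1243 with replicate number as a block. In limma-voom they were 781 and 879 with TMM, and 798 and 846 with median-ratio scaling. In the main fit 47.5% of the called genes were higher, and 71.2% as TPM, where the median of all genes was 0.090. As TPM without Gm23935, 592 genes were higher and 538 lower, so that 52.4% were higher. In that setting the median of all genes was 0.023, and 3 of the 10 genes were called. With 1 library left out, 157 to 406 were higher and 212 to 416 lower. In the 7 lists, 16 higher and 2 lower genes became 4 and 1 with no filter, and 4 to 16 and 1 to 3 with 1 library left out. Lower genes of the lists were 4 in limma-voom with TMM, 4 with median-ratio scaling and 5 with the replicate block. Among the other named genes, Eif2ak2 reversed to -0.019 without si-NC replicate 2 (range -0.019 to 0.18). Ppp1r15b reversed to 0.078 as TPM, 0.0082 as TPM without Gm23935, 0.0072 after quantile normalization and, with 1 library left out, to 0.0078 (si-NC replicate 1) and 0.0069 (si-circRtn4 replicate 2), in a range of -0.035 to 0.0078. The cause of these changes was not tested, except that fits without 1 library rest on 5 libraries. With the replicate block, Trib3 and Rtn4 gained the call, and no other gene refitted by name changed its call (Dusp8, Sqstm1 and Hmox1 were not followed singly). The edgeR fits planned on recovered reads were not run, and limma-voom was the count-based fit used on those reads. At 3 libraries per group, small changes of these genes cannot be resolved, as the interval of Atf4 from -0.065 to 0.43 shows.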
